A study of Mus musculus with 12 samples.

Results

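S100 genes encode small calcium-binding proteins, and 10 of them were followed here: S100a1, S100a4, S100a6, S100a8, S100a9, S100a10, S100a11, S100a13, S100a14 and S100a16. They were chosen by gene symbol from the 26264 genes of the count tables. The cells were endometrial epithelial organoids of the mouse, that is, epithelium of the uterine lining grown in a gel, used at passage 3. The study concerns the part that estrogen receptor alpha, the product of Esr1, plays in the identity of this epithelium. It compared wild type organoids (WT) with organoids labelled as Esr1 knockout (KO), each without estrogen (untreated) and with estrogen (treated), with 3 libraries in each of the 4 groups. All groups shared the tissue, the medium and the passage. The labels give neither the Esr1 allele, nor a Cre driver, nor the dose or time of estrogen. The growth protocol names uteri of several postnatal ages without tying a library to an age, and nothing says whether the 3 libraries of a group stem from different mice or organoid lines. The p-values therefore measure the spread between these libraries, which may be technical. The submitters recorded that neither genotype reacted to the hormone.

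S100 proteins form dimers, and most change shape when calcium fills their EF-hand loops, which exposes a surface that binds other proteins. Inside the cell they bind annexins, cytoskeletal proteins and enzymes, and some are released and act on receptors such as TLR4 and RAGE. In skin and other stratified epithelia several of them are made in large amounts, while in the uterus the family is best known for S100g (calbindin-D9k), an estrogen-responsive calcium carrier. Most family members sit side by side in the genome, in and next to the epidermal differentiation complex, a region that holds genes of the cornified envelope.

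Sequence upstream of 4 of the genes is printed because the study removed a transcription factor: both calprotectin genes, the most abundant gene of the set (S100a11), and the least abundant (S100a4). RefSeq promoter sequence (build GRCm38.p6) matched 8 of the 10 genes, all but S100a10 and S100a14, in 9 windows. Each line holds the 250 bases before the annotated start, read along the gene's strand, with motif matches in capitals. S100a8 is on the plus strand at chr3:90668821-90669070, S100a9 on the minus strand at chr3:90695722-90695971, S100a11 on the plus strand at chr3:93520246-93520495 and S100a4 on the plus strand at chr3:90603520-90603769.
S100a8: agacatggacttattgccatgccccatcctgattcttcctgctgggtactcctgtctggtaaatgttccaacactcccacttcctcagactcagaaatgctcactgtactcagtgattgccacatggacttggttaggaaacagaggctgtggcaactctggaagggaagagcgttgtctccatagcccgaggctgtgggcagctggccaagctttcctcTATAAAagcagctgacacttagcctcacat
S100a9: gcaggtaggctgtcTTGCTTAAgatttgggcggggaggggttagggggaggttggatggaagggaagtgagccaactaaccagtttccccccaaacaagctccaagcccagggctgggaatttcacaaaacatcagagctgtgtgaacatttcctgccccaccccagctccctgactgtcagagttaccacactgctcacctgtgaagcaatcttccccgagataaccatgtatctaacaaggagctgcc
S100a11: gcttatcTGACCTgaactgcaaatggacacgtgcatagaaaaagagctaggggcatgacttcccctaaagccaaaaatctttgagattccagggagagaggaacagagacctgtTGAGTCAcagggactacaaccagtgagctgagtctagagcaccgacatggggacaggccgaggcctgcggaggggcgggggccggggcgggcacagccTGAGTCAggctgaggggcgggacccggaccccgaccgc
S100a4: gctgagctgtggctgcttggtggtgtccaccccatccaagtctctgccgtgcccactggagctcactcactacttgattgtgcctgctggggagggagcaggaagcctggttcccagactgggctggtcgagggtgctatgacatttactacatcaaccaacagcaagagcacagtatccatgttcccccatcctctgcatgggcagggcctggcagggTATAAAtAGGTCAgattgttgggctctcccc
The capitals in S100a8 mark a TATA box (TATAAA), whose first base lies 30 bases before the start. In S100a9 they mark a C/EBP motif (TTGCTTAA, 236 bases before). In S100a11 they mark 2 AP-1 motifs (TGAGTCA, 136 and 38 bases before) and 1 arm of an estrogen response element (TGACCT, 243 bases before). In S100a4 they mark a TATA box (31 bases before) and the same arm on the other strand (AGGTCA, 24 bases before). TATAAA on the gene's strand occurred in 2 of the 9 windows and in 7.59% of all 32851 windows of that length. On both strands, TGANTCA occurred in 2 of 9 and in 6.75% of all windows, TTGCNNAA in 1 of 9 and in 9.56%, and AGGTCA in 3 of 9 and in 14.02%. The full estrogen response element, with both arms and 3 free bases between them, occurred in 0 of 9 and in 0.0639% of all windows. The matches not printed were in S100a16, whose windows held TGACCT (221 bases before 1 start) and TGAATCA (192 bases before another). These matches describe letters only. The windows of S100a1 and S100a13, which start close together on opposite strands, shared 104 bases.

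Libraries held 75654191 to 108665407 counted reads, and a level is given as CPM, the count scaled to library size after TMM normalisation. Esr1 itself ranged from 253 to 352 CPM in the 6 WT libraries and from 15.9 to 20.3 CPM in the 6 KO libraries. General epithelial markers were present in all libraries, with Epcam at 994 to 1215 CPM in WT and 613 to 812 in KO, and 3 of 7 such markers passed as lower in KO in both treatments (Epcam, Krt7 and Krt18). Others of that list ran the other way in 1 treatment: Krt8 was 1.43-fold higher without estrogen (edgeR adjusted p = 0.0077) and Krt19 was 1.79-fold higher with it (edgeR adjusted p = 0.00971). With library size alone or DESeq2 2 of the 7 passed as higher in both, and with RLE scaling 1. Of 5 tested markers of uterine and Mullerian epithelium, 4 passed as lower in KO (Esr1, Pgr, Pax8 and Emx2) and 1 as higher (Foxa2), and Hoxa10 and Hoxa11, which define the uterine tract, were at or near 0 in all groups. The 6 markers of basal and stratified epithelium (Krt5, Krt14, Trp63, Krt13, Krt6a and Dsg3) all passed as higher in KO, with a summed level of 2.15 to 7.04 CPM in WT and 5447 to 14150 CPM in KO. Krt14 had 3 reads over untreated WT and 0 over treated WT, and Krt13 had 12 and 24. These genes could pass the filter on low counts through KO alone, so their direction was set by the filter. Over all tested genes, 34.1% passed as higher in KO in both treatments and 30.8% as lower. All 10 S100 genes had reads in every library, at least 18 in each, and all 10 would have passed the filter on low counts in the WT libraries alone.

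All 10 S100 genes were higher in KO than in WT, without estrogen and with it, and for each gene all 6 KO libraries lay above all 6 WT libraries. The changes ran from 1.89- and 1.82-fold for S100a10, which pairs with annexin A2, to 295- and 245-fold for S100a9, a subunit of the antimicrobial protein calprotectin. Together the 10 genes took 0.0934% ± 0.0261 (SD, n = 3) of counted reads in untreated WT and 0.472% ± 0.0597 in untreated KO, and 0.0882% ± 0.0166 in treated WT and 0.445% ± 0.0987 in treated KO. Estrogen gave no call for any of them in either genotype.

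The genotype comparison must be read against a broad background. By the edgeR quasi-likelihood test, with Benjamini-Hochberg adjustment over 16465 tested genes and a threshold of 0.05, 10 of 10 S100 genes were called without estrogen, beside 71.7% of all tested genes, and 10 of 10 with estrogen, beside 70.8%. Higher in KO were 37.7% of all genes without estrogen and 36.7% with it. Calls as higher in both treatments covered 10 of 10 S100 genes and 34.1% of all tested genes, and a full separation with KO above WT covered 10 of 10 and 34.0%. Rises reached 2-fold or more in both treatments in 9 of the 10 and in 24.4% of all tested genes, and 32-fold or more in 3 of the 10 (S100a8, S100a9 and S100a14) and in 7.17%. The median log2 fold change was 2.73 over the 10 genes against 0.04 over all tested genes without estrogen, and 2.30 against 0.02 with estrogen. The genes were picked with earlier results known, so these counts describe them and test nothing. In bulk RNA, more cells of a type and more RNA per cell cannot be told apart. The rise went together with the stratified markers given above, and the part of such cells in it was not tested.

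**Figure D1:**
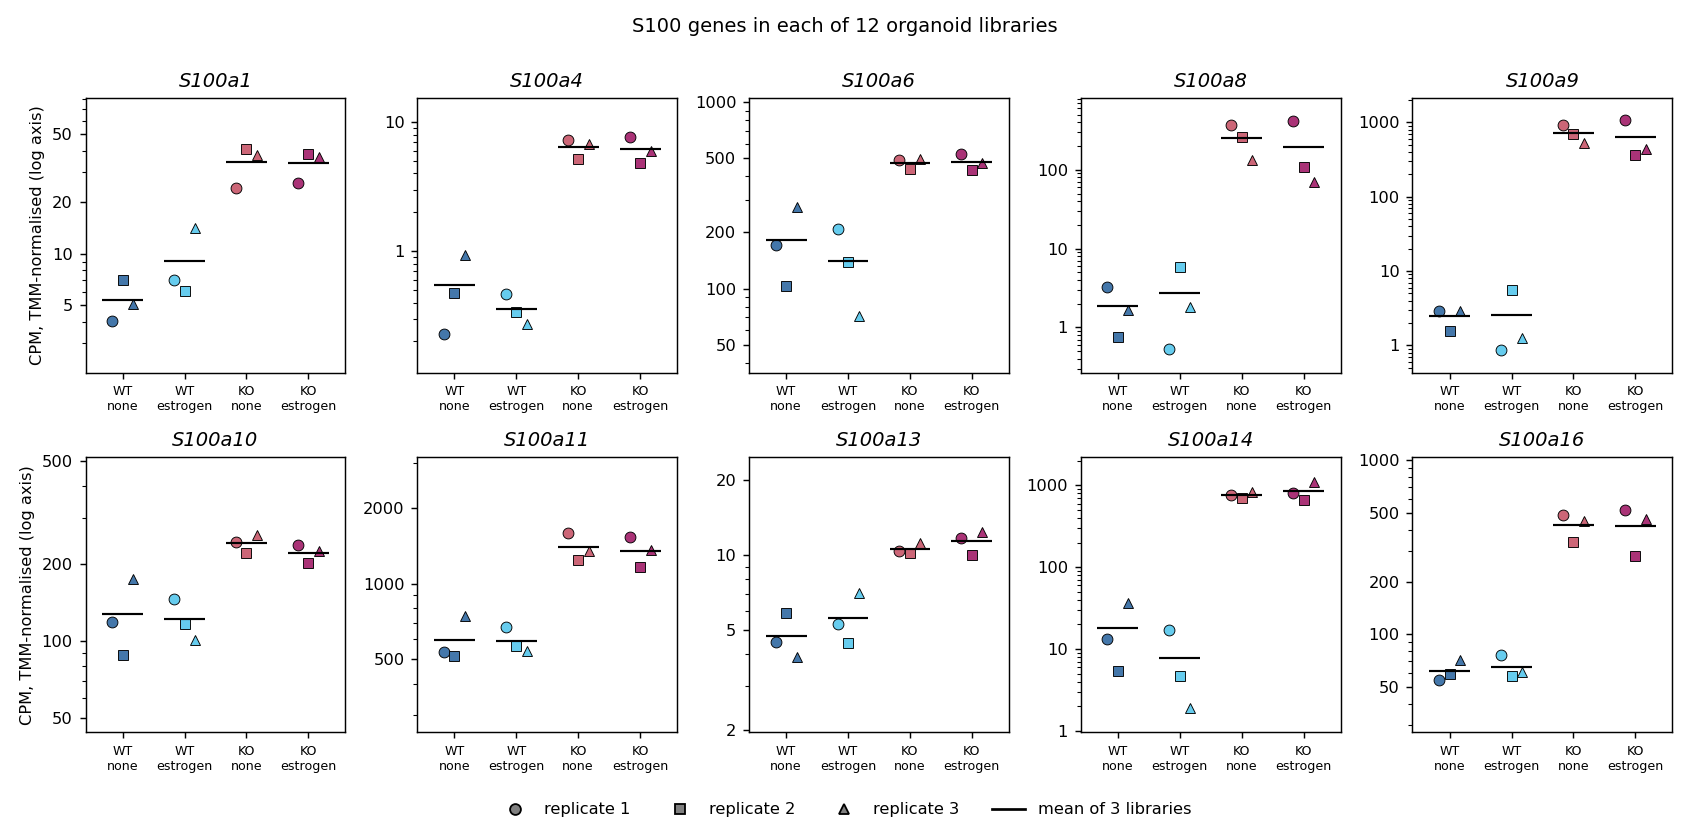
Level of each S100 gene (CPM, log axis, TMM-normalised) in the 12 libraries, by genotype (WT, KO) and estrogen (none, estrogen). Circles, squares and triangles are replicates 1, 2 and 3, bars are means of 3 libraries, and in every panel the 6 KO points lie above the 6 WT points.

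S100a8 and S100a9 form calprotectin, which binds zinc and manganese and signals through TLR4. S100a9 stood at 2.91, 1.56 and 2.90 CPM in untreated WT (replicates 1 to 3), 0.864, 5.59 and 1.27 in treated WT, 934.5, 698 and 530.1 in untreated KO, and 1073, 365 and 441 in treated KO. The lowest KO library was thus far above the highest WT library. On the log2 scale KO differed from WT by 8.20 (SE 0.826, edgeR adjusted p = 5.57e-06) without estrogen and 7.94 (SE 0.816, edgeR adjusted p = 7.25e-06) with it, which is 295-fold (95% interval 83.3 to 1044) and 245-fold (70.2 to 855). With estrogen it was 587-fold without replicate 2 of treated WT and 158-fold without replicate 1 of treated KO. S100a8 read 3.21, 0.748 and 1.65 CPM in untreated WT, 0.535, 5.91 and 1.80 in treated WT, 373, 257.5 and 131 in untreated KO, and 411, 108 and 69.3 in treated KO. It varied more within KO than S100a9 did, by 5.93 times between the highest and lowest KO library against 2.94 times. Its change was 7.11 (SE 1.08, edgeR adjusted p = 1.29e-04) without estrogen and 6.17 (SE 1.03, edgeR adjusted p = 2.70e-04) with it, both on the log2 scale. It was 7.74 without replicate 1 of untreated WT, and with estrogen 7.40 without replicate 2 of treated WT and 5.03 without replicate 1 of treated KO.

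The balance of the calprotectin genes also differed by genotype. Per kilobase of mRNA, the ratio of the S100a8 level to the S100a9 level was 0.513 to 1.51 in WT, with a median of 0.895, and 0.168 to 0.426 in KO, with a median of 0.355. The ranges did not overlap. The WT ratios rest on low levels, with 52 reads of S100a8 in its poorest WT library.

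Neutrophils and monocytes also make calprotectin in bulk, so their other genes were read beside it. Of 14 neutrophil and myeloid markers, Csf3r, Ngp and Retnlg had 0 reads in all 12 libraries. The leukocyte antigen Ptprc was at 3.87 to 7.66 CPM in WT and at 0 to 0.0190 CPM in KO. Ly6g reached no more than 0.532 CPM in KO, Mpo no more than 0.649, Camp no more than 0.0570, and Elane 0.0172. Cxcr2 ran the other way, at 0.113 to 0.973 CPM in WT and 1.23 to 1.60 in KO. It passed as higher with estrogen (4.23-fold, edgeR adjusted p = 0.0169) but not without it (2.80-fold, edgeR adjusted p = 0.0635). Of the 9 tested markers 2 passed as higher in KO in both treatments (Itgam and Lyz2, at most 3.77 CPM) and 3 as lower (Ptprc, Csf1r and Cd68). Over all tested genes these shares were 34.1% and 30.8%. With library size alone or DESeq2, 3 passed as higher. The summed level of the list was 260.2 to 413.5 CPM in untreated WT, 257 to 475 in treated WT, 105 to 129.5 in untreated KO and 114 to 192 in treated KO, most of it from Cd68.

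S100a14 is an S100 protein of epithelia, and here it went from a middle place in the set, with wide spread, to a high one. It read 13.4, 5.44 and 36.2 CPM in untreated WT, 16.9, 4.74 and 1.93 in treated WT, 763, 698.5 and 841 in untreated KO, and 812, 666 and 1106 in treated KO. The WT libraries spread over 18.8 times while the KO libraries stayed within 1.66 times. On the log2 scale KO differed from WT by 5.39 (SE 0.863, edgeR adjusted p = 1.96e-04) without estrogen and 6.77 (SE 0.922, edgeR adjusted p = 6.14e-05) with it. Without the highest WT library, replicate 3 untreated or replicate 1 treated, it was 6.35 and 8.01.

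S100a16, a widely expressed member of the family, had the steadiest WT levels of the 10 genes. They were 54.8, 59.0 and 71.1 CPM in untreated WT and 75.7, 57.7 and 60.4 in treated WT, against 485, 341 and 450.2 in untreated KO and 522, 284 and 459 in treated KO. The rise of 2.79 (SE 0.230, edgeR adjusted p = 1.12e-06) and 2.71 (SE 0.229, edgeR adjusted p = 1.50e-06) on the log2 scale had the smallest adjusted p of the set, at 6.90-fold (4.86 to 9.81) and 6.53-fold (4.60 to 9.265).

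S100a4, also called metastasin, binds non-muscle myosin and is a common label of fibroblasts. It was the lowest of the 10 genes, at 0.229, 0.475 and 0.927 CPM in untreated WT, 0.463, 0.339 and 0.271 in treated WT, 7.24, 5.22 and 6.78 in untreated KO, and 7.73, 4.84 and 5.93 in treated KO. Its rise was large relative to that level, with a log2 fold change of 3.55 (SE 0.420, edgeR adjusted p = 1.70e-05) without estrogen and 4.10 (SE 0.435, edgeR adjusted p = 7.88e-06) with it. Without replicate 3 of untreated WT the first of these was 4.16. Of 10 fibroblast and stromal markers 6 were tested, and 1 of these, the intermediate filament gene Vim, passed as higher in KO, at 0.0607 to 0.363 CPM in WT and 5.22 to 7.77 CPM in KO. Over all tested genes 34.1% passed as higher in both treatments. The list summed to 2.52 to 5.33 CPM in WT and 6.66 to 11.2 CPM in KO, where most of the sum was Vim. The collagen genes Col1a1, Col1a2 and Col3a1 and the proteoglycan gene Dcn ran the other way, with log2 values from -1.14 to -1.58 without estrogen and from -1.67 to -4.11 with it, of which Dcn with estrogen passed (edgeR adjusted p = 0.0146). Pdgfra, the remaining tested marker, leaned higher in KO, at 0.37 (edgeR adjusted p = 0.389) and 0.38 (edgeR adjusted p = 0.371), and did not pass. It read 0.854 to 1.97 CPM in WT and 1.18 to 2.69 CPM in KO. The median over the tested list was -1.61. Col1a1, the chain that defines collagen-making stroma, was below 1 CPM in all libraries. The part of such cells in the S100a4 level was not tested.

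S100a6 (calcyclin) binds the ubiquitin ligase adaptors encoded by Cacybp and Sugt1. It stood at 171, 103 and 272 CPM in untreated WT, 210, 139.5 and 70.8 in treated WT, 490.5, 438 and 495 in untreated KO, and 529, 434 and 474 in treated KO. KO libraries agreed to within 1.22 times, and WT libraries spread over 3.85 times. On the log2 scale KO differed from WT by 1.38 (SE 0.380, edgeR adjusted p = 0.00699) without estrogen, the largest adjusted p of the set, and 1.77 (SE 0.384, edgeR adjusted p = 0.00167) with it.

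S100a11 (calgizzarin), a partner of annexin A1 in keratinocytes, was the most abundant of the genes. It held 533, 514 and 745 CPM in untreated WT, 675, 567 and 539 in treated WT, 1586, 1240 and 1347 in untreated KO, and 1524, 1168 and 1364 in treated KO. The change was modest and tight, at 2.33-fold (1.805 to 3.00) without estrogen and 2.28-fold (1.77 to 2.94) with it. S100a10, which does not depend on calcium and forms a tetramer with annexin A2, changed least. It held 119, 88.3 and 175 CPM in untreated WT, 146, 117 and 100.8 in treated WT, 243, 219 and 259 in untreated KO, and 237, 201 and 225 in treated KO. Its folds were 1.89 (1.36 to 2.62, edgeR adjusted p = 0.0026) and 1.82 (1.31 to 2.53, edgeR adjusted p = 0.00378).

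S100a1, best known as a regulator of calcium cycling in muscle, and S100a13, which helps FGF1 and IL-1 alpha leave the cell without a signal peptide, were minor genes here. S100a1 read 4.04, 6.99 and 5.06 CPM in untreated WT, 7.02, 6.05 and 14.2 in treated WT, 24.3, 41.0 and 37.7 in untreated KO, and 26.1, 38.1 and 37.1 in treated KO. It rose by 6.39-fold (3.73 to 10.9) without estrogen and 3.71-fold (2.21 to 6.24) with it. S100a13 read 4.49, 5.84 and 3.90 CPM in untreated WT, 5.28, 4.45 and 7.03 in treated WT, 10.4, 10.2 and 11.2 in untreated KO, and 11.7, 10.0 and 12.4 in treated KO. It rose by 2.23-fold (1.67 to 2.98) and 2.03-fold (1.53 to 2.71). In the RefSeq gene table of build GRCm38 the spans of S100a1 and S100a13 overlap by 98 bases. Whether exons of both genes cover these bases was not checked. Reads that overlapped exons of both were left out of both counts, and the counting ignored the strand, so a small part of each level is uncertain.

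**Figure D2:**
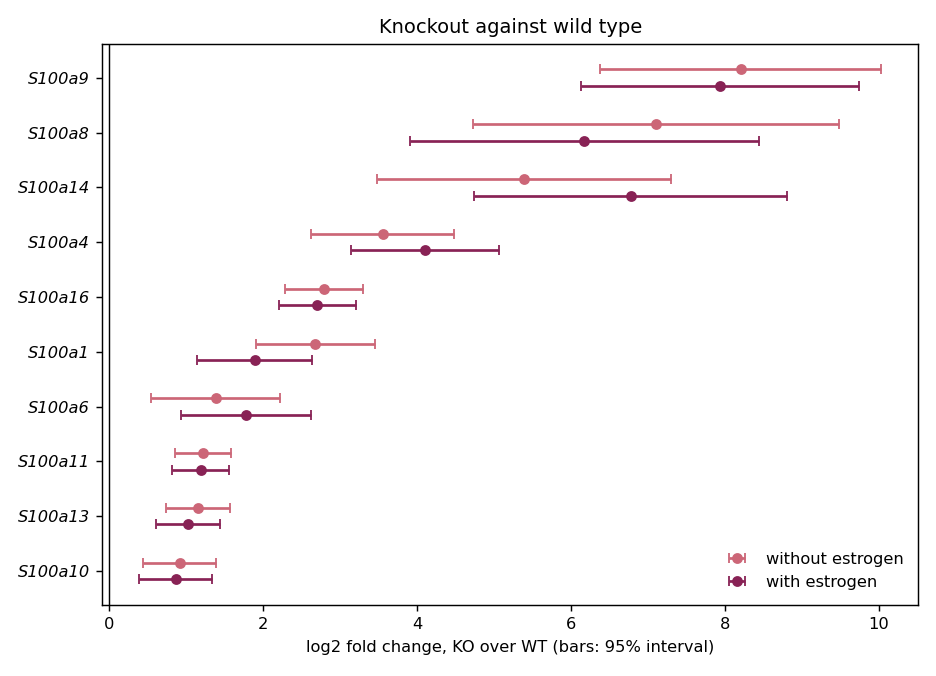
Log2 fold change of KO over WT for each S100 gene without and with estrogen, with 95% intervals from the edgeR fit. All 20 intervals lie above 0, from S100a10 at 0.92 and 0.87 to S100a9 at 8.20 and 7.94.

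Between genes, levels were compared per kilobase of mRNA, as the median over the 6 libraries of a genotype. In WT the order was S100a11 (1082 CPM per kb), S100a6 (212), S100a10 (172), S100a16 (53.2), S100a1 (9.63), S100a14 (8.88), S100a13 (6.83), S100a9 (4.29), S100a8 (3.55) and S100a4 (0.805). S100a11 stood clear of S100a6, whose range overlapped that of S100a10, and S100a16 stood clear of its neighbours on both sides. From S100a1 down, each range overlapped the next. In KO the order was S100a11 (2653), S100a9 (1183), S100a14 (743.5), S100a6 (660, from 593.7 to 724), S100a16 (405), S100a8 (400.1), S100a10 (337), S100a1 (55.3), S100a13 (15.1) and S100a4 (12.8). S100a11 again stood clear at the top, and S100a6 stood clear of S100a16. Ranges overlapped between S100a9 and S100a14, S100a14 and S100a6, S100a16 and S100a8, S100a8 and S100a10, and S100a13 and S100a4. S100a9 and S100a14, which were among the overlapping genes from S100a1 down in WT, thus took the places below S100a11 in KO.

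Within KO the libraries of a number ran together. The same replicate number was highest in both KO groups for 8 of the 10 genes, against 0 of 10 in WT. Same-numbered KO libraries also deviated together over all tested genes (correlations 0.57, 0.50 and 0.41), so this was not particular to the S100 genes. Replicate 1 was highest in both KO groups for 5 genes (S100a4, S100a8, S100a9, S100a11 and S100a16), and replicate 2 of treated KO was the lowest KO library for 8 genes. Others ran differently: in both KO groups S100a1 was highest in replicate 2 and lowest in replicate 1, and S100a13 and S100a14 were highest in replicate 3. The stratified marker sum was highest in the same replicate 1 libraries, at 13280 CPM untreated and 14150 treated, and lowest in replicate 2, at 7424 and 5447, with 9232 and 9290 in replicate 3. What part of the S100 spread goes with that sum was not tested. The coefficient of variation over the 6 KO libraries was largest for S100a8, at 64.2%, and smallest for S100a6, at 7.61%. Over the 6 WT libraries it ran from 13.2% for S100a16 to 96.6% for S100a14.

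Estrogen against none asked whether the hormone moved these genes in either genotype. None of the 10 was called in WT or in KO. The edgeR test called 0 of 16465 genes (0%) in WT, in KO and for the interaction of genotype and estrogen, and 883, 411 and 726 genes had an unadjusted p under 0.05. DESeq2 called 63, 20 and 25 genes, of which 0 were S100 genes of the set, and 1054, 469 and 902 genes had an unadjusted p under 0.05 there. S100a1 in WT was the single S100 gene with an unadjusted p under 0.05 in edgeR, with a log2 change of 0.76 (SE 0.336, 95% interval 0.0179 to 1.50, edgeR adjusted p = 0.92), and its groups overlapped. The lowest value in WT was -1.22 for S100a14 (interval -2.85 to 0.42, edgeR adjusted p = 0.947). In KO the values lay between -0.37 for S100a8 (interval -2.15 to 1.41) and 0.17 for S100a14 (interval -1.41 to 1.74), all with an edgeR adjusted p of 1. For abundant and steady S100a11 the interval was narrow, at 0.773 to 1.28-fold in WT and 0.757 to 1.25-fold in KO. For S100a8, S100a9 and S100a14 the intervals leave room for changes of more than 2-fold either way in KO. All intervals given here come from the fit without a replicate block, although same-numbered KO libraries deviated together.

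Whether the genotype difference itself depended on estrogen was tested as an interaction. Values ran from -0.93 for S100a8 (interval -3.64 to 1.77) to 1.38 for S100a14 (interval -0.88 to 3.65), with edgeR adjusted p from 0.974 to 1 over the 10 genes. The 2 genotype comparisons share no library, but they share the estimate of the spread, and same-numbered KO libraries deviated together, so they are not independent of each other.

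**Figure D3:**
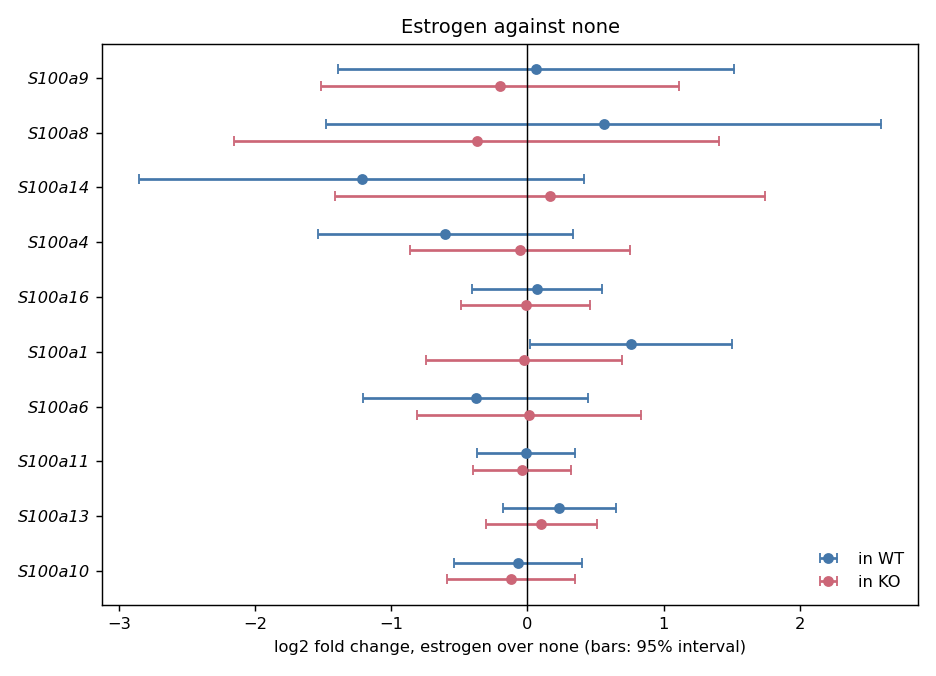
Log2 fold change of estrogen over none for each S100 gene in WT and in KO, with 95% intervals from the edgeR fit. The interval of S100a1 in WT (0.76) starts just above 0 and all 19 others include 0.

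The rest of the family was read from 8 further S100 genes, of which 6 were tested. As higher in KO in both treatments passed 4 of them (S100a7a, S100a2, S100b and S100a3), and 1 passed as lower (S100g), beside 34.1% and 30.8% of all tested genes. S100a2 had 20 reads over untreated WT and 17 over treated WT, and S100b had 17 and 15. These genes could pass the filter through KO alone. S100a7a, the mouse relative of psoriasin, read 0.178, 0.101 and 0.232 CPM in untreated WT, 0.134, 0.0726 and 0.0789 in treated WT, 50.6, 36.7 and 45.7 in untreated KO, and 59.0, 24.4 and 44.1 in treated KO. Its log2 fold changes of 8.03 (edgeR adjusted p = 3.41e-08) and 8.76 (edgeR adjusted p = 3.25e-08) were as large as those of S100a9. S100a2, a gene of basal keratinocytes, reached 0.812 to 1.13 CPM in KO from 0.0242 to 0.115 in WT, and S100b, a glial gene, 0.266 to 1.005 from 0.0225 to 0.113.

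S100g ran the other way. This calbindin read 247, 189 and 415 CPM in untreated WT, 310, 243 and 147 in treated WT, 16.5, 50.2 and 46.0 in untreated KO, and 18.2, 76.0 and 42.9 in treated KO. All 6 KO libraries lay below all 6 WT libraries. On the log2 scale KO differed from WT by -2.92 (SE 0.578, edgeR adjusted p = 9.01e-04) without estrogen and -2.35 (SE 0.564, edgeR adjusted p = 0.00321) with it. Estrogen against none gave no call for S100g, at -0.28 in WT (interval -1.47 to 0.90, edgeR adjusted p = 0.987) and 0.28 in KO (interval -0.91 to 1.48). S100z did not pass (0.14, edgeR adjusted p = 0.834, and -0.57, edgeR adjusted p = 0.366), S100a5 was not tested, with 6 reads in untreated KO alone, and S100a7l2 had 0 reads. In the GRCm38 annotation S100g lies inside Ctps2, S100a2 overlaps S100a3 and S100z overlaps Gm52025, so reads of each such pair may be lost or misplaced.

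Fused S100 genes encode large proteins that carry an S100 domain at their start and build the cornified envelope. Of 7 listed, 5 were tested and all 5 passed as higher in KO (Rptn, Crnn, Hrnr, Tchhl1 and Tchh), beside 34.1% of all tested genes. Crnn, Hrnr and Tchhl1 had 0 reads in WT and Rptn had 2. These genes passed the filter through KO alone, so their direction was set by the filter. Rptn, repetin, had 2 reads over untreated WT and 89818 over untreated KO, a ratio of 45630 (95% counting interval 12630 to 376800). With estrogen it had 0 reads in WT, and the KO level was at least 31800-fold higher. Against a floor of 3 reads over the group, Crnn was at least 3614-fold higher without estrogen and 4632-fold with it, Hrnr at least 2496-fold and 2510-fold, and Tchhl1 at least 7.79-fold and 10.8-fold. Such floors and counting intervals treat every read as a separate molecule and leave out the spread between libraries. Each mate was counted on its own, and PCR copies of a molecule could not be told apart. The intervals are therefore too narrow even for counting error, and the lower bounds may be too high. The fused list summed to 2.66 to 3.48 CPM in WT, and to 826.5, 578.5 and 398 CPM in untreated KO and 1066, 319 and 420.1 in treated KO.

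Of 11 tested intracellular partners of S100 proteins, 4 passed as higher in KO in both treatments (Anxa1, Ahnak, Sugt1 and Cacybp), 4 as lower (Il1a, Anxa6, Atp2a2 and Myh9) and 3 did not pass in both (Anxa2, Anxa11 and Fgf1). Over all tested genes 34.1% passed as higher and 30.8% as lower, so both counts lie near the background. Without TMM, scaled by library size alone, 3 passed as lower. Anxa1, the partner of S100a11, stood at 185 to 320.1 CPM in WT and 1215 to 1887 CPM in KO, with log2 fold changes of 2.78 (edgeR adjusted p = 2.52e-06) and 2.65 (edgeR adjusted p = 3.89e-06). Ahnak, a scaffold that binds the S100a10 and annexin A2 complex, rose by 1.77 (edgeR adjusted p = 1.81e-05) and 1.88 (edgeR adjusted p = 1.25e-05) on the log2 scale. Il1a, a cargo of S100a13, had log2 fold changes of -3.55 (edgeR adjusted p = 6.21e-05) and -2.61 (edgeR adjusted p = 4.60e-04), and Anxa6 of -0.96 (edgeR adjusted p = 1.53e-05) and -0.94 (edgeR adjusted p = 1.97e-05).

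Anxa2, which encodes the partner of S100a10, stood at 1334 to 1742 CPM in WT and 1003 to 1558 in KO, and did not pass (-0.31, edgeR adjusted p = 0.132, and -0.22, edgeR adjusted p = 0.282). Per kilobase, S100a10 amounted to 0.129 to 0.213 of the Anxa2 level in WT, with a median of 0.172, and to 0.321 to 0.442 in KO, with a median of 0.395. The ranges did not overlap.

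Of 7 tested receptors and co-receptors for released S100 proteins, 0 passed as higher in KO and 3 passed as lower in both treatments, beside 34.1% and 30.8% of all tested genes. Scaled by library size alone, 1 passed as higher. Cd36, a scavenger receptor, was at 76.5 to 204 CPM in WT and at most 0.0902 CPM in KO. Tlr4, the receptor through which calprotectin signals, was at 175 to 214 CPM in WT and 54.8 to 83.9 in KO, with log2 fold changes of -1.68 (edgeR adjusted p = 5.56e-07) and -1.40 (edgeR adjusted p = 2.29e-06). Its co-receptor Ly96 changed by -0.95 (edgeR adjusted p = 2.58e-04) and -0.74 (edgeR adjusted p = 0.00146). Ager, which encodes RAGE, did not pass, at -0.69 (edgeR adjusted p = 0.0565) and -0.49 (edgeR adjusted p = 0.155), nor did Cd14, Myd88 and Bsg.

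On chromosome 3 of GRCm38, RefSeq places 12 protein-coding S100 genes in a row, namely S100a1, S100a13, S100a14, S100a16, S100a3, S100a2, S100a4, S100a5, S100a6, S100a7a, S100a8 and S100a9, while S100a11 and S100a10 follow further along. Of the 12, 11 were tested and all 11 passed as higher in KO in both treatments, beside 34.1% of all tested genes. S100a2, with 20 reads over untreated WT and 17 over treated WT, could pass the filter through KO alone. Large and small changes lay side by side: S100a13 (1.16 and 1.02, log2) lies beside S100a14 (5.39 and 6.77), and S100a6 (1.38 and 1.77) lies beside S100a7a. The 3 neighbours S100a7a, S100a8 and S100a9 at the end of the row had the largest changes in it without estrogen.

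**Figure D4:**
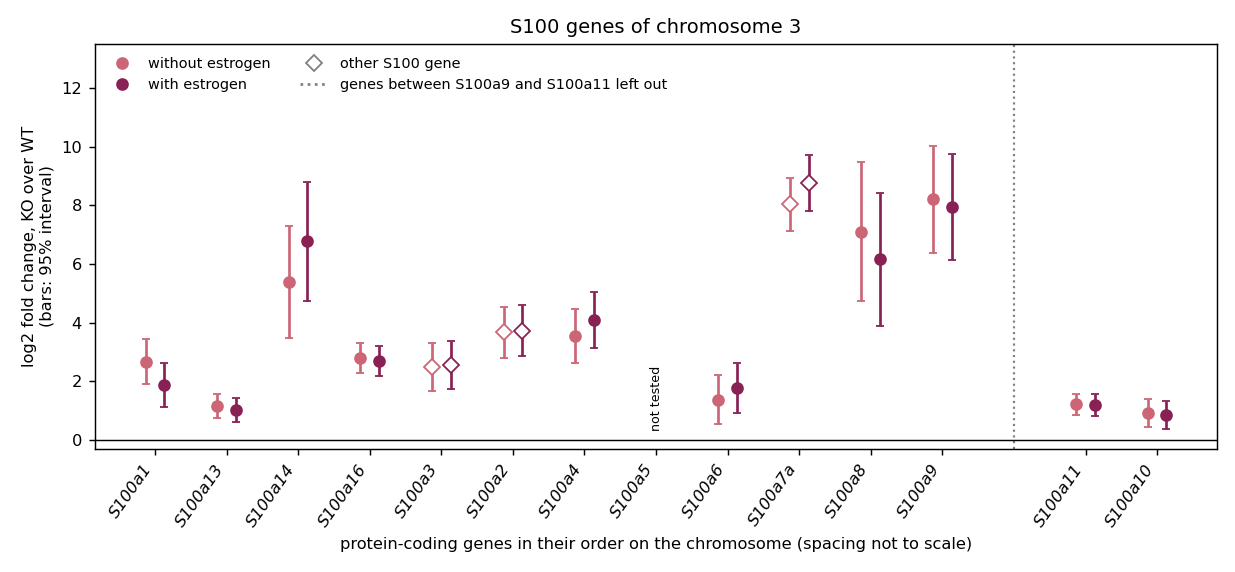
Log2 fold change of KO over WT, with 95% intervals, for the S100 genes of chromosome 3 in their order, without and with estrogen. Filled circles are the 10 genes described here and open diamonds are other S100 genes; S100a7a, S100a8, S100a9 and S100a14 lie above 5 and the outlying S100a11 and S100a10 near 1.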

How the data were processed

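Bulk mRNA libraries of 12 organoid samples (4 groups of 3) were analysed from the deposited read counts, whole numbers per gene. Per the file headers, the authors counted with featureCounts 2.0.0 over RefSeq exons by gene symbol, without strand, each mate on its own, leaving out reads that mapped to several places or overlapped several genes. S100a11 has a pseudogene, S100a11-ps, whose shared reads are thus lost. Per the submitters' processing notes, FastQC 0.11.7, Trim Galore 0.6.6, STAR 2.7.10b, featureCounts 2.0.3 and build GRCm39 were used.

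Of 26264 genes, 5461 had 0 reads. filterByExpr (minimum count 10, total 15) kept 16465. Counts were TMM-scaled and fitted with edgeR 4.0.16 (R 4.3.3, robust quasi-likelihood, 4 group means with a shared spread, no batch given in the labels). Tests were two-sided with Benjamini-Hochberg adjustment over all tested genes. Standard errors were derived from the log2 fold change and F. The script was tested on simulated data. Lengths came from GENCODE M21 (GRCm38) transcripts paired with RefSeq mRNAs. Libraries of a group differed by far more than counting noise (chi-square over degrees of freedom 46.5 to 305).

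Same-numbered libraries deviated together in KO (correlations across genes 0.57, 0.50 and 0.41), so the numbers pair the KO libraries, as a hint from the data, while in WT they did not (-0.16, -0.16 and -0.39). Across genotypes the same correlations lay between -0.0089 and 0.053.

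The S100 genes and all gene lists were chosen with earlier results of these data known. From each list up to 4 genes called in both treatments with the largest mean change were to be named. S100a3, Tchh, S100z, S100a5, Anxa2, Anxa11, Fgf1, Sugt1, Cacybp, Atp2a2, Myh9, Ager, Cd14, Myd88, Bsg, the cell type markers and the genes between S100a9 and S100a11 were named after their values were seen. Of the adipocyte, Schwann cell and melanocyte list, 1 of 4 markers was tested and 0 passed. Alternatives were other scalings, filters, DESeq2 1.42.0, fits to only 2 groups, replicate blocks and leaving out each library.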

Additional observations from a re-analysis of the deposited data

How the results depend on the processing

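All 10 S100 genes kept their direction and their call in KO against WT under every alternative run: 130 of 130 values without estrogen (largest adjusted p 0.0262, for S100a6) and 130 of 130 with it (largest 0.0181, for S100a10). Without TMM (library size alone) the median log2 fold change of all genes went from 0.039 and 0.0204 to 0.265 and 0.205, and the share of higher among genes called in both treatments from 52.5% to 65.3%. In the estrogen comparisons and the interaction 0 of the 10 genes passed under any alternative. Over all genes, DESeq2 called 63 in WT, 20 in KO and 25 for the interaction where edgeR called 0. Leaving out single libraries gave 0 to 54 calls in WT (54 without treated replicate 1 and 1 without untreated replicate 3), 0 to 4 in KO (4 without untreated replicate 3) and 0 to 6 for the interaction (6 without treated WT replicate 1). The cause was not tested. Among the uncalled S100 values, the sign turned in 14 of 140 values for estrogen in WT, 18 of 140 in KO and 18 of 190 for the interaction. Ranges over the main fit and all alternatives together that crossed 0 were, in WT, -0.958 to 0.00712 for S100a4, -0.793 to 0.031 for S100a6, -0.669 to 1.199 for S100a8, -1.195 to 0.487 for S100a9, -0.275 to 0.230 for S100a10, -0.112 to 0.181 for S100a11 and -0.0609 to 0.185 for S100a16. In KO they were -0.221 to 0.132 for S100a1, -0.251 to 0.0917 for S100a4, -0.0638 to 0.0795 for S100a6, -1.52 to 0.0313 for S100a8, -0.839 to 0.0697 for S100a9, -0.135 to 0.0642 for S100a11, -0.0536 to 0.321 for S100a14 and -0.195 to 0.205 for S100a16. For the interaction they were -0.0625 to 0.902 for S100a4, -0.0176 to 0.806 for S100a6, -2.08 to 0.296 for S100a8, -0.904 to 0.992 for S100a9, -0.351 to 0.153 for S100a10, -0.221 to 0.0735 for S100a11, -0.313 to 0.0651 for S100a13 and -0.264 to 0.137 for S100a16. Without TMM, S100a6 in KO was -0.0296. The sign held throughout in WT for S100a1 (0.2845 to 0.9991), S100a13 (0.0363 to 0.4143) and S100a14 (-2.458 to -0.2508). In KO it held for S100a10 (-0.1844 to -0.0591) and S100a13 (0.0392 to 0.1845). For the interaction it held for S100a1 (-1.023 to -0.308) and S100a14 (0.4175 to 2.625). None of these values passed, so no direction of an estrogen effect on these genes can be read from the data.

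With replicate number as a block across genotypes, 10 of 10 S100 genes were called in both genotype comparisons. With the number nested in genotype as the block, 7 genes were called for estrogen in WT, 0 in KO and 4 for the interaction, again with 0 of the 10 S100 genes, and the uncalled WT values turned to -0.327 for S100a9 and 0.00495 for S100a11. With the block across genotypes, counts over all genes moved slightly (11814 and 11640 called, 5587 higher and 5091 lower in both treatments), 1 simple epithelial marker passed as higher and 2 stromal markers as lower, and the counts of the other gene lists did not move.

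Limits: 3 libraries a group and wide spread leave estrogen effects on S100a8, S100a9 and S100a14 loosely bounded, and low WT counts limit S100a4 and S100a8. No annotation of build GRCm39 was used here, so lengths and gene order come from GRCm38.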

Other observations

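Between S100a9 and S100a11 the RefSeq table of GRCm38 lists 56 protein-coding genes, mainly Sprr, Lce and fused S100 genes of the cornified envelope. This interval was looked at after the values were seen. Of its 55 genes with a row in the count tables, 45 were tested, 43 passed as higher in KO in both treatments, 1 as lower and 1 did not pass. Over all tested genes 34.1% passed as higher and 30.8% as lower. In WT, 22 of the 55 had 0 reads in all 6 libraries, and 17 of these had reads in KO. Those of the 17 that were tested passed the filter through KO alone, so their direction was set by the filter. Genes with few WT reads, such as Rptn with 2, could pass that way too and are not among the 17. Near-identical copies in the Sprr2 and Lce families make single levels there uncertain, since reads shared between copies were not counted.

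The exception that passed as lower was Sprr2f, a small proline-rich protein gene known as estrogen-responsive in the uterus, at -1.11 without estrogen and -0.65 with it on the log2 scale. The gene that did not pass was Lelp1, at -1.01 and -1.09. Ivl, which encodes the envelope protein involucrin, was higher by 1.88 and 1.81, and Lor, which encodes loricrin, by 4.71 and 4.74.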
